A study of Bos taurus with 4 samples.

Results

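The interleukin-1 (IL1) family genes examined were the ligands IL1A, IL1B and IL18, the receptor antagonist IL1RN and the receptor chains IL1R1, IL1R2, IL1RAP, IL18R1 and IL18RAP. They were chosen by gene symbol, by a rule that uses no measured value, although earlier results of these data were known when the family was picked. Of these 9 genes, 8 had a probe set named in the platform table, 13 probe sets in all, out of 9155 named genes and 24016 probe sets measured. IL18RAP, the accessory chain of the IL18 receptor, was not analysed here.

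The cells were bovine gamma delta T cells, lymphocytes with a gamma delta antigen receptor that are abundant in calf blood. Per the labels, they were sorted to over 97% purity from the blood of calves between 1 and 6 months old, whereas the series' design text calls the calves neonatal. After a night of rest, cells of each of 2 animals, calf 301 and calf 303, were kept for 4 h in the presence of a water extract of apple polyphenols (APP, 42.2 µg/ml) or with phosphate-buffered saline alone (PBS). This gave 4 Affymetrix arrays, a PBS and an APP array per calf, and the array number limits the precision. Each group thus holds 2 samples from separate animals.

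IL1A and IL1B are inflammatory cytokines that bind the same receptor, IL1R1, which then recruits the accessory chain IL1RAP to signal through MYD88 and IRAK kinases to NF-kappaB. The system is restrained by IL1RN, which occupies IL1R1 without signalling, and by IL1R2, a decoy receptor that binds ligand and has no signalling domain. IL18 acts through its own receptor, IL18R1 with IL18RAP, and the same adaptor, and is best known for supporting interferon gamma production by T cells and natural killer cells. In many species gamma delta T cells respond to IL1 without engagement of their antigen receptor.

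The deposited values are ratios of a probe set's signal to its own median over the 4 arrays, so a ratio of 1 is the middle of that probe set and the level of one gene cannot be set against that of another. Which members lay near background is unknown for the same reason, and a change near background is compressed. In these bulk samples, fewer cells of a type and less RNA per cell cannot be told apart. Changes are APP minus PBS on the log2 scale within a calf, and a gene was said to rise or fall at an adjusted p under 0.05 in a limma fit that took the calf as a block.

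With APP the 2 agonist genes of the IL1 receptor did not pass the test, while the receptor gene IL1R1 rose 6.88-fold, the antagonist gene IL1RN rose 2.13-fold and IL18 fell 2.90-fold. The gene of the accessory chain, IL1RAP, fell 1.26-fold. Altogether 2 of the 8 members rose (23% of all genes did), 2 fell (29.7% of all genes) and 4 did not pass. The share that changed in either direction, 4 of 8, was near the 52.7% of all genes, so the number of members called is no feature of this family. The APP and PBS arrays did not overlap for 6 of 8 members, again near the share of all genes (73.8%). IL1R1 and IL18, 2 of the 8, moved 2-fold or more the same way in each calf, as did 9.79% of all genes. The median change over the 8 members was 0.12, beside 0.01 over all genes.

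**Figure D1:**
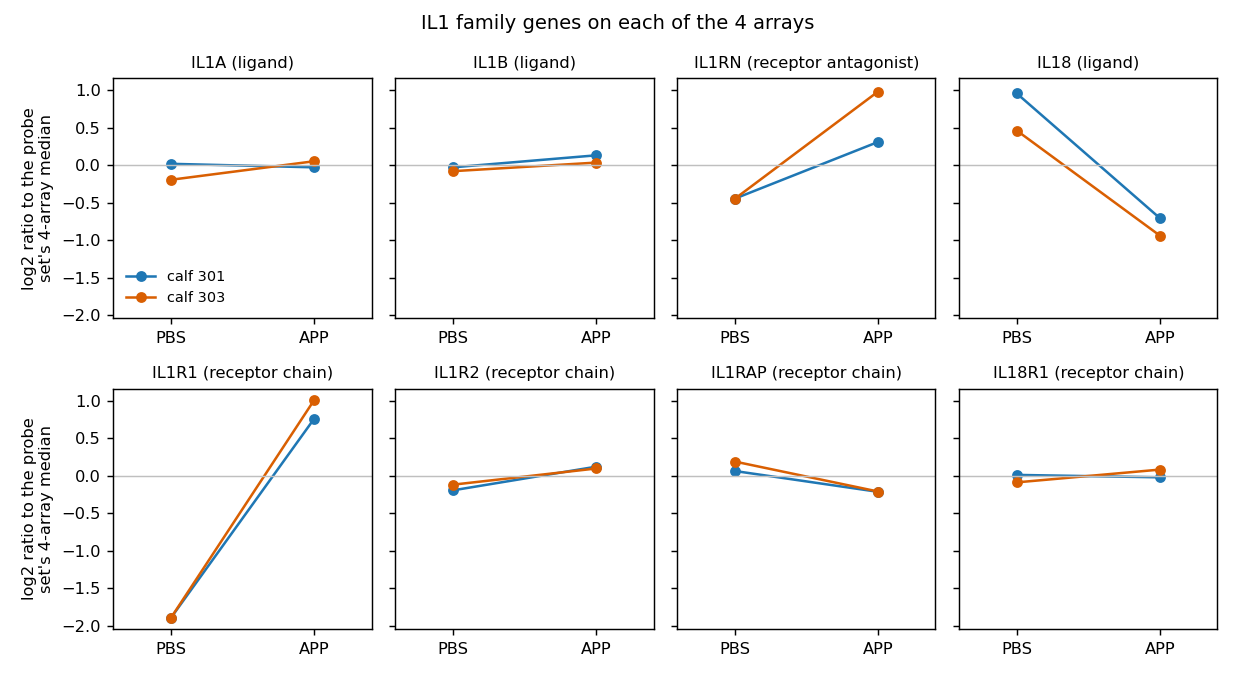
Log2 ratio of each measured IL1 family gene to its probe sets' median over the 4 arrays, for PBS and APP, with a line per calf (blue 301, orange 303) and genes with several probe sets shown by their mean. IL1R1 and IL1RN are higher and IL18 is lower on both APP arrays, while IL1A, IL1B, IL1R2, IL1RAP and IL18R1 stay between -0.21 and 0.19.

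IL1R1, the signalling receptor of IL1A and IL1B, had a ratio of 0.269 on the PBS array of calf 301 and 0.269 on that of calf 303. On the APP arrays its ratio was 1.70 in calf 301 and 2.02 in calf 303. The groups did not overlap, and the PBS values were equal to the last deposited digit, as they were for 65 of the 24016 probe sets tested. The log2 change was 2.66 in calf 301 and 2.91 in calf 303 (mean 2.78 ± 0.18, SD, n = 2 calves, limma SE 0.11, adjusted p = 1.08e-05). This was the 31st highest change of the 9155 genes. It rests on 1 probe set, whose accession in the platform table is not a RefSeq transcript.

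IL1RN, the secreted receptor antagonist, had a ratio of 0.734 on the PBS array of calf 301 and 0.733 on that of calf 303. With APP it stood at 1.24 in calf 301 and 1.98 in calf 303. Both APP values lay above both PBS values, and the PBS values of the calves were nearly equal while the APP values were not. The log2 change was 0.76 in calf 301 and 1.43 in calf 303 (mean 1.09 ± 0.48, SD, n = 2 calves, limma SE 0.16, adjusted p = 0.00127). Of the members it had the widest spread between the calves. Without the PBS array of calf 303, in a fit without the block, the adjusted p was 0.0502 at a change of 1.09.

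IL18, which acts with IL12 in inducing interferon gamma, had ratios of 1.94 and 1.38 on the PBS arrays of calves 301 and 303. On the APP arrays the ratios were 0.612 and 0.521. PBS values were higher than APP values in each calf, with no overlap. The fall (mean -1.53 ± 0.19, SD, n = 2 calves, limma SE 0.11, adjusted p = 5.57e-05) was the 203rd deepest of all genes. The difference between the calves was also largest for this gene in PBS, where calf 303 minus calf 301 was -0.49 (log2).

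IL1A, the ligand that is active in its precursor form, had ratios of 1.01 and 0.874 on the PBS arrays of calves 301 and 303 and of 0.981 and 1.04 on the APP arrays. The groups overlapped. Its log2 change of 0.10 had a 95% interval from -0.16 to 0.36 (limma, adjusted p = 0.476). For IL1B, which needs cleavage to become active, the ratios were 0.980 and 0.946 with PBS and 1.096 and 1.02 with APP. Its groups did not overlap, but the gap was small, and the change of 0.14 had an interval from -0.088 to 0.36 (adjusted p = 0.262). On the scale as deposited these upper bounds amount to rises of 1.28-fold for IL1A and 1.29-fold for IL1B. They hold for the average over the probe sets of each gene. For the single probe sets the upper bounds (log2) were 0.35 and 0.61 for IL1A and 0.24 and 0.58 for IL1B.

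IL1R2, the decoy receptor, had ratios of 0.875 and 0.922 on the PBS arrays and of 1.09 and 1.07 on the APP arrays of calves 301 and 303. The APP values lay above the PBS values in both calves. The change of 0.27 (95% interval 0.037 to 0.49) missed the threshold (limma, adjusted p = 0.0538). It passed after quantile normalization (0.32, adjusted p = 0.0451). IL18R1, the ligand-binding chain of the IL18 receptor, had ratios of 1.01 and 0.942 with PBS and of 0.987 and 1.06 with APP, and the groups overlapped. Its change was 0.069 (95% interval -0.17 to 0.31, adjusted p = 0.599).

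IL1RAP, which also serves as accessory chain for the IL33 and IL36 receptors, had ratios of 1.05 and 1.14 on the PBS arrays and 0.863 and 0.866 on the APP arrays. APP values were lower in each calf. The mean change was -0.34 ± 0.09 (SD, n = 2 calves, limma SE 0.10, adjusted p = 0.0238). Its call was lost after quantile normalization (-0.28, adjusted p = 0.0598) and when any 1 of the 4 arrays was left out, with adjusted p between 0.104 and 0.276. This gene has 3 probe sets, and they differed.

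**Figure D2:**
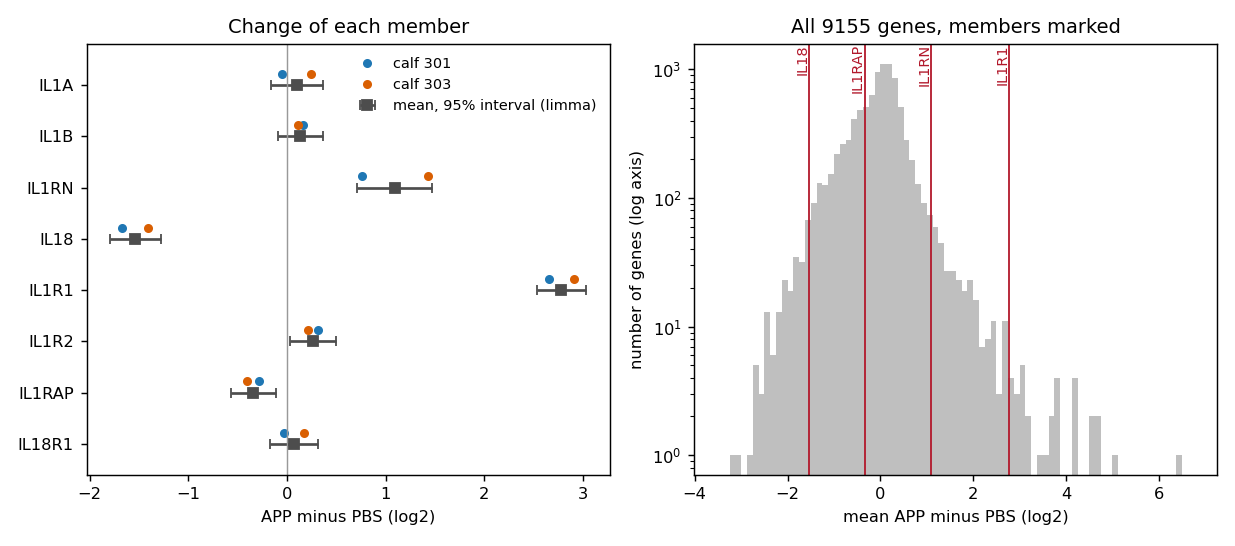
Left, APP minus PBS change of each member on the log2 scale, with a dot per calf and a square with limma's 95% interval for the mean of the 2 calves. Right, a histogram (log count axis) of the mean change of all 9155 genes, in which the members that rose or fell are marked, IL1R1 at 2.78 and IL18 at -1.53 on opposite flanks.

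The fall of IL1RAP came from 1 of its probe sets, the middle one in the plot of probe sets. It had ratios of 1.26 and 0.720 on the PBS and APP arrays of calf 301 and changed by -0.96 in the mean of the calves (-0.81 and -1.11, SE 0.12, limma adjusted p over all probe sets 0.00147). The others changed by -0.028 and -0.027, with adjusted p of 0.871 and 0.869. Which transcripts of the gene each probe set reads is not given in the sources used here. The average over 3 probe sets therefore understates the change of one and overstates that of the others.

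IL18 and IL1RN rest on 1 probe set each, while IL1A and IL1B had 2 each. Those of IL1B changed by -0.029 (adjusted p = 0.86) and 0.30 (0.41 in calf 301 and 0.19 in calf 303, limma adjusted p = 0.0815). Those of IL1A changed by 0.072 and 0.13, and for each of them the calves went in opposite directions. The probe sets of IL18R1 changed by 0.19 and -0.053. Of the 13 member probe sets, 2 rose (16.3% of all probe sets did), 2 fell (23.6% of all) and 9 did not pass.

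**Figure D3:**
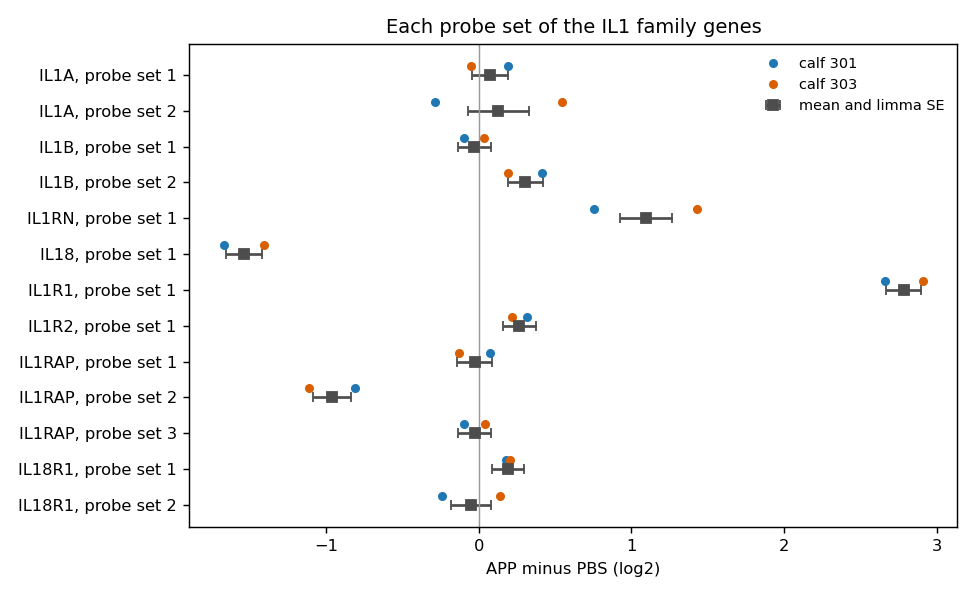
APP minus PBS change (log2) of each of the 13 probe sets, numbered within a gene, with a dot per calf and a square with limma's SE for the mean. For IL1RAP the middle probe set lies at -0.96 and the other two near 0.

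Differences between members on the same arrays do not depend on a factor per array, so they were also taken. The change of IL1R1 exceeded that of the decoy IL1R2 by log2 values of 2.34 in calf 301 and 2.69 in calf 303, a 5.72-fold shift between the receptor genes. It exceeded that of its partner chain IL1RAP, taken as the average of 3 probe sets that differed, by 2.94 and 3.31. The change of the antagonist exceeded that of IL1B by 0.60 in calf 301 and 1.32 in calf 303, and that of IL1A by 0.80 and 1.18. The change of IL18 minus that of IL1B was -1.83 and -1.52. Each of these differences kept its sign in both calves. They are shifts between genes and say nothing of which transcript is the more abundant.

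The scaling of the arrays bears on the absolute directions. The hybridization controls bioB, bioC and bioD, bacterial transcripts added to the labelled sample, were higher with APP by log2 values of 0.76 in calf 301 and 0.94 in calf 303 (mean of 14 probe sets). Scaled to them, the median change of all genes moved from 0.01 to -0.84. IL1R1 then still rose (1.93) and IL18 and IL1RAP still fell (-2.39 and -1.19), while IL1RN no longer passed (0.24, limma adjusted p = 0.122). IL1A, IL1B, IL1R2 and IL18R1 were then called lower, at -0.75, -0.71, -0.59 and -0.78. Relative to the median of all genes the order of the members is the same.

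**Figure D4:**
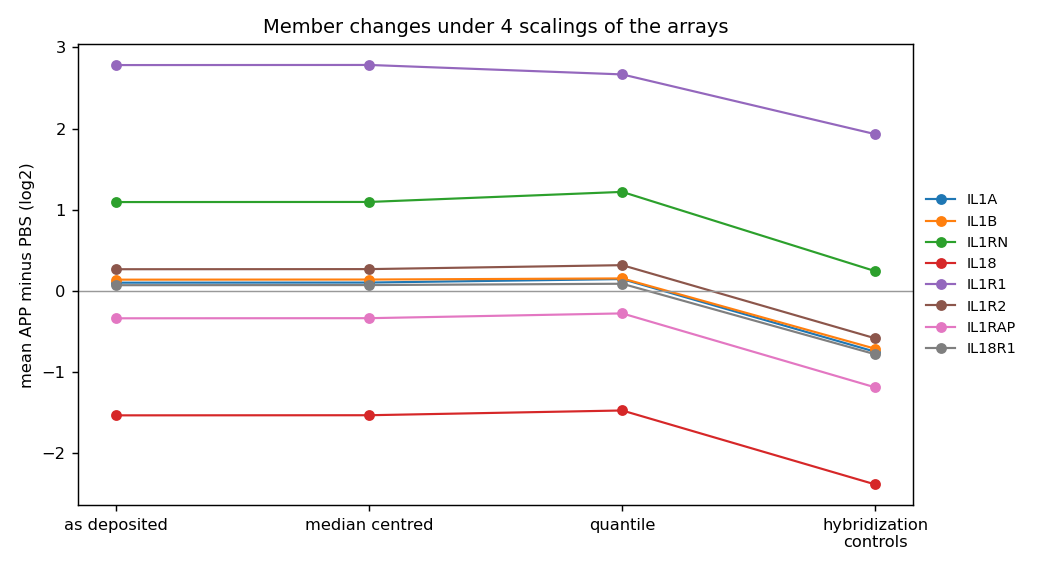
Mean APP minus PBS change (log2) of the 8 members as deposited, after median centring, after quantile normalization and after scaling to the hybridization controls. The members stay in nearly the same order, and the last scaling shifts all of them down by 0.85.

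None of the 8 members passed the test of calf 303 against calf 301 in limma, which 1.7% of all genes did, so that the count says little about these genes. After scaling to the hybridization controls 1 member passed, and on the deposited scale 1, IL18, had an unadjusted p under 0.05. The shares of all genes by these 2 criteria were not taken, so neither count can be read as a feature of these genes. The widest gaps, calf 303 minus calf 301, were -0.49 for IL18 in PBS and 0.67 for IL1RN in APP. The mean difference was -0.36 for IL18 (adjusted p = 0.157) and 0.34 for IL1RN (adjusted p = 0.346). The APP change was higher in calf 303 for 5 of 8 members, beside 53.3% of all genes. Whether the APP change itself differed between the calves was not tested, as there is 1 array per calf and treatment.

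Genes with the most similar pattern were sought by the Euclidean distance between log2 values over the 4 arrays, each centred on its mean, among 9147 other genes. For IL18 these were CAPN2, a calpain protease gene (distance 0.10, changes of -1.75 and -1.42 in calves 301 and 303), CYB5A, which encodes cytochrome b5 (0.22), and SQOR, a mitochondrial sulfide oxidoreductase gene (0.23). For IL1RN they were UXS1 (0.09), the small GTPase gene RAB19 (0.11) and BPNT2 (0.16). For IL1R1, added after its values were seen, they were TRAF1, a signalling adaptor of the TNF receptor family (0.17), TNF itself (0.19) and the elongation factor gene ELL2 (0.23). TNF rose by 2.45 in calf 301 and 2.81 in calf 303. Only 31 genes lay within a distance of 0.5 of IL1R1, against 166 for IL18 and 194 for IL1RN. For IL1A and IL1B, 5345 and 5432 genes lay that close, so their nearest genes (ANGPT1, CATHL6 and APOC2, and SPTSSB, TMEM120A and SDF2) say little.

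Of 13 other ligands, decoys and receptors of the family, 2 were measured. SIGIRR, a receptor that dampens IL1 and Toll-like receptor signalling, fell in both calves (-1.91 in calf 301 and -1.83 in calf 303, mean -1.87, 3.66-fold lower, SE 0.10, limma adjusted p = 2.05e-05). The fall was nearly equal in both calves and rests on 1 probe set. IL33, an alarmin of the family, changed by 0.21 and 0.17 (adjusted p = 0.13).

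Beside the counts of the lists that follow stand the shares of all genes, 23% that rose and 29.7% that fell. Genes that process or release IL1 family proteins fell in 5 of 11 cases and rose in 0 (median change -0.22). Scaled to the hybridization controls, all 11 fell (median -1.07). CASP1, the protease that activates IL1B and IL18, changed by 0.0086 and 0.030 in the calves (limma adjusted p = 0.881). PYCARD, the inflammasome adaptor, changed by -0.44 and -0.010 (adjusted p = 0.175). The calpain genes CAPN2 (mean -1.59) and CAPN1 (-0.62), whose protein family cleaves the IL1A precursor, fell. So did GSDMD (-0.51), the pore protein through which IL1B leaves cells, and NINJ1 (-0.57), needed for membrane rupture in cell death. In unblocked fits without the PBS array of either calf, 1 gene of this list passed in place of 5.

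The signalling chain below the receptors moved both ways. Of 22 measured genes, 12 fell, 6 rose and 4 did not pass (median change -0.43). The adaptor MYD88 changed by -0.63 in calf 301 and -0.53 in calf 303 (SE 0.10, limma adjusted p = 0.0023), and the kinase IRAK4 by -1.53 and -1.50, with falls at both of its probe sets (-1.58 and -1.45). IRAK1 did not pass (-0.24, adjusted p = 0.112). TRAF6, the ubiquitin ligase of the pathway, gave 0.0037 as a gene, but its probe sets went in opposite directions, -0.38 and 0.38, and each passed over all probe sets (adjusted p = 0.0327 and 0.0334). Among p38 kinases' activators, MAP2K6 fell (mean -3.19) and MAP2K3 rose (2.38), and the scaffold SQSTM1 rose (1.81). Without the PBS array of calf 301 or of calf 303, in unblocked fits, 5 genes of the list fell and 6 rose, and MYD88 did not pass (limma adjusted p = 0.0507 and 0.0599). Scaled to the hybridization controls, 16 fell and 2 rose.

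Genes that IL1 or IL18 receptors are known to induce rose in 17 of 27 cases and fell in 1 (median change 0.55). Many of them also respond to other stimuli. CSF2 (mean change 6.41), NFKBIA (3.04), CXCL2 (2.57) and CCL20 (2.43) rose the most. NFKBIZ, an inhibitor family member that IL1 induces strongly in many cells, rose by 0.94 in calf 301 and 0.84 in calf 303 (0.53 and 1.25 for its probe sets). PTGS2, the inducible cyclooxygenase, did not pass as a gene (0.25, limma adjusted p = 0.0691), and its probe sets differed, with changes of 1.02, -0.075 and -0.20. The first of them rose (0.92 in calf 301 and 1.12 in calf 303, limma adjusted p over all probe sets 0.000892), and the others did not pass. IFNG, the classical product of IL18 stimulation, changed by -0.057 and 0.0058 (adjusted p = 0.838). SOD2, named after its value was seen, was the gene that fell (mean -0.46, with -0.71 in calf 301 and -0.21 in calf 303). No gene of this list fell after quantile normalization or without the replicate block. Scaled to the hybridization controls, 9 of the 27 rose and 13 fell, and the median became -0.30. In unblocked fits without the PBS array of either calf, 11 rose.

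Factors that act on IL1 family transcripts rose in 13 of 15 cases and fell in 1 (median change 0.75). The stress-responsive factor ATF3 (mean 3.71) and the AP-1 subunit gene FOS (2.75, with 1.74 and 3.75 for its probe sets) rose, as did IRF8 (2.36), a factor of the interferon regulatory family, with probe sets at 3.75 and 0.98. The mRNA decay factors ZFP36L1 (1.82) and ZFP36 (1.09), which bind AU-rich elements of cytokine transcripts, rose as well. The third member of that family measured, ZFP36L2, was the gene of the list that fell (-0.76, limma adjusted p = 0.0056, named after its value was seen). Its probe sets differed, at -1.29 and -0.24, and only the former passed over all probe sets (limma adjusted p = 0.00246 and 0.258). ZFP36 changed by 0.99 in calf 301 and 1.18 in calf 303. Scaled to the hybridization controls, 5 rose and 5 fell, with a median of -0.10, and ZFP36 stood at 0.23 (limma adjusted p = 0.135). Without the PBS array of calf 303, in an unblocked fit, 8 rose.

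**Figure D5:**
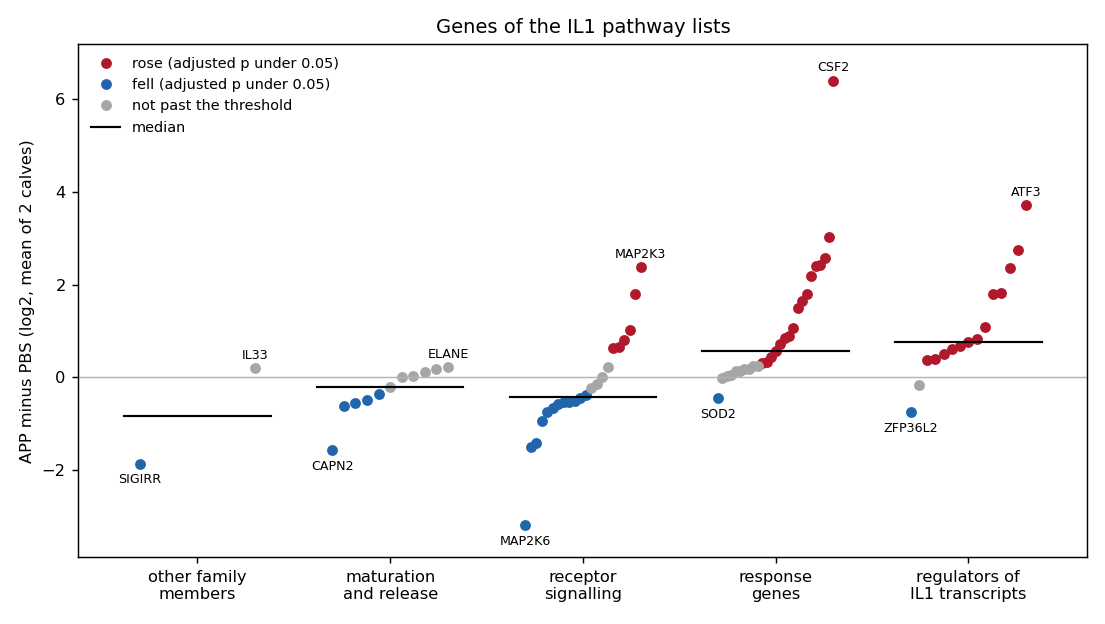
Mean APP minus PBS change (log2) of each measured gene of 5 pathway lists, sorted within a list, coloured by the outcome of limma's test, with a bar at the list's median and the end genes named. Points lie mostly below 0 for maturation and receptor signalling (medians -0.22 and -0.43) and mostly above 0 for response genes and regulators (0.55 and 0.75).

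Monocytes, macrophages and neutrophils are main sources of IL1A, IL1B and IL1RN, so their markers are given beside these genes. Of 13 measured monocyte, macrophage and dendritic cell markers, 3 rose, 0 fell and 10 did not pass (median change 0.14), against 23% and 29.7% of all genes that rose and fell. With the hybridization controls as the scale, 1 rose and 12 fell (median -0.72). The mean log2 ratio of these markers, CD68 with the largest change among them, was -0.19 and -0.12 on the PBS arrays and 0.080 and 0.17 on the APP arrays of calves 301 and 303. CD68, a lysosomal protein gene, rose (mean 2.31) and CD14, the lipopolysaccharide coreceptor gene of monocytes, rose by 0.46 in the mean, but was at -0.39 after scaling to the hybridization controls. The call of CD14 was also lost without the replicate block (limma adjusted p = 0.0837) and in unblocked fits without PBS 301, APP 301 or PBS 303 (0.0958, 0.252 and 0.317). Of 10 neutrophil markers 1 rose, of 5 B cell markers 3 fell, of 4 natural killer cell markers 1 rose, and of 5 alpha beta T cell markers 1 rose and 1 fell. Those were CD8A and CD8B, which were also higher in calf 303 than in calf 301. The mean differences between the calves were 1.59 and 2.30 (log2, limma adjusted p = 0.00673 and 0.000499). CD4, CD28 and CD40LG did not pass that test. None of 6 platelet and erythroid markers passed in limma's test. On the scale of the hybridization controls, where 8182 of the 9155 genes fell, no marker of these 5 lists rose, and 9 of 10, 5 of 5, 4 of 4, 4 of 5 and 6 of 6 fell. Of 8 genes listed as gamma delta T cell markers 4 fell and 1 rose, and 7 fell and 0 rose on that scale. The list includes CD3D, CD3E, CD3G, CD247 and CD5, which are not limited to gamma delta T cells. As deposited, CD3G, CD247, CD163L1 (-1.08) and WC1.3 (-0.86) fell and CD5 rose. The gamma chain entry, TARP, did not pass (-0.013, limma adjusted p = 0.922). Whether these markers lay at background is unknown on this scale, and the part of other cells in the rise of IL1RN was not tested.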

How the data were processed

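Per the submitters' processing notes, the authors used RMA (no version named) to make probe set signals, and the deposited values are linear ratios to each probe set's median over the 4 arrays. That unit was read from the values: the mean of the middle pair of every probe set lay between 0.982 and 1.00. The ratios were log2 transformed with no further scaling or filter on low values. All 112 control probe sets were left out. Gene names came from a platform table, updated by Entrez identifier through RefSeq's gene table for the assembly ARS-UCD2.0 (13292 of 24016 probe sets have 1 gene, 86 several, 10638 none), and probe sets of a gene were averaged. No depth exists for arrays.

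The fit used limma 3.58.1 in R 4.3.3 (two-sided, calf as a block, Benjamini-Hochberg over all 9155 genes or all probe sets, threshold 0.05). On data simulated with noise drawn from that fit, 100% of genes changed by log2 values of 1 or 2 (100 each) were recovered. In that simulation 28 unchanged genes were also called. All genes outside these 2 sets of 100 were left unchanged, whereas 52.7% of genes were called in the data. As the noise had the size that the fit itself estimates, the simulation checks the code and not the error rate in these data. The fit had 1 residual and 5.86 prior degrees of freedom for genes. The pairing comes from the titles, which name the same calves in both groups. Across genes, the calf difference in PBS and that in APP had r = 0.509, and genes are not independent replicates. An exact permutation test of 2 against 2 arrays that ignores the pairing cannot go below p = 0.33. Swapping treatments within the 2 calves allows still fewer arrangements, and neither test was used.

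The members and lists were chosen with earlier results of these data known. The lists hold 191 symbols, of which 128 were measured, 4 of them through a synonym. Named genes are the members, up to 4 genes per pathway list with the largest change past the threshold, genes named in any case where measured (IL33, SIGIRR, CASP1, PYCARD, MYD88, IRAK1, IRAK4, TRAF6, NFKBIZ, PTGS2, IFNG, ZFP36, CD14 and CD68) and the 3 nearest genes per ligand or antagonist. Alternatives were other scalings, no block, robust eBayes, a pseudocount of 0.1, the most variable probe set per gene and leaving out each array.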

Additional observations from a re-analysis of the deposited data

Results flagged for a closer look

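For 2 members the calves went in opposite directions in the average over the gene's probe sets. The log2 change of IL1A was -0.047 in calf 301 and 0.25 in calf 303. That of IL18R1 was -0.032 and 0.17. The probe sets of each gene differed. Those of IL1A changed by 0.19 and -0.29 in calf 301 and by -0.048 and 0.54 in calf 303. Those of IL18R1 changed by 0.18 and -0.24 in calf 301 and by 0.20 and 0.14 in calf 303. With 1 array per calf and treatment these differences were not tested, and neither gene passed the test of the mean change.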

How the results depend on the processing

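Of the members, IL1R1 and IL18 kept direction and call under every alternative run, with leave-one-out changes of 2.66 to 2.91 and of -1.78 to -1.29. Without the replicate block 4 members passed as before, and 3560 genes and 6746 probe sets in place of 4821 and 9591, and the missing block ended the call of no member. Scaled to the hybridization controls, 8468 genes (286 rises, 8182 falls), 22268 probe sets (615 rises, 21653 falls) and 7 members passed, 1 member passed between the calves, rises were 3.38% of the genes called in place of 43.6%, and IL1RN was at 0.24, IL1A at -0.75, IL1B at -0.71, IL1R2 at -0.59 and IL18R1 at -0.78. Other genes that changed sign there were IL33 (-0.66), CASP1 (-0.83), TRAF6 (-0.85), PTGS2 (-0.60), CD14 (-0.39), ANGPT1 (-0.78), CATHL6 (-0.77), APOC2 (-0.75), SPTSSB (-0.72), TMEM120A (-0.71) and SDF2 (-0.71). These shifts follow from the construction, which lowers each gene by the rise of the controls. Calls on that scale, also the 1 between the calves, are not comparable with those as deposited. Quantile normalization put IL1R2 at 0.32 (passing) and IL1RAP at -0.28 (not passing), and the most variable probe set put IL18R1 at -0.053. Leaving out 1 array, without the block, gave 2050 to 3304 genes, 3610 to 6687 probe sets and 2 to 3 members, with IL1RN at 0.76 to 1.43, IL1RAP at -0.40 to -0.28 and IL1A at -0.0063 to 0.21. Near 0, the sign also turned for CASP1 (-0.0095 to 0.048), TRAF6 (-0.054 to 0.061), IFNG (-0.057 to 0.0058), ANGPT1 (-0.029 to 0.17), CATHL6 (-0.0067 to 0.18) and APOC2 (-0.0095 to 0.21). Fewer arrays and no block leave less information, and other causes were not tested.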
